A study of Mus musculus with 6 samples.

Results

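The AP-1 and EGR immediate-early factors are taken here as 10 genes named by family: Fos, Fosb, Fosl1 and Fosl2 of the FOS family, Jun, Junb and Jund of the JUN family, and Egr1, Egr2 and Egr3 of the EGR family. They were picked by gene symbol from the 54532 genes of a bulk RNA-seq table, by a rule that uses no measured value. The study compared primary myoblasts, the cultured progenitors of skeletal muscle, from WT mice and from mice in which eIF5A, a hypusinated translation factor, was targeted. Each genotype had 3 libraries, and all cells were grown in a proliferation medium of DMEM with 10% serum and FGF and collected at day 2. The cells came from digested hind-limb muscle of 3-week-old mice, and the sources used here describe no sorting of these cells before culture. The eIF5A-KO mice carried floxed eIF5A and the Pax7-CreERT2 driver on a C57BL/6j background and had been given tamoxifen, so that recombination is limited to cells that express Pax7. WT controls were littermates, and the study's text and one of its legends give their Cre and floxed alleles differently. The study describes its RNA-seq as done in triplicate without saying whether the replicates came from separate animals or cultures, and p-values then measure the spread between these libraries alone, which may be technical. Because the targeted transcript did not check the labels, eIF5A-KO stands below for the label of a library.

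AP-1 is a pair of basic leucine zipper proteins, one of which comes from the JUN family and the other from the FOS, JUN or a related family, and it binds the sequences known as TPA and cAMP response elements. EGR proteins are zinc finger factors that bind GC-rich sites. Most of these genes are immediate-early genes: serum, growth factors and stress induce their transcripts within minutes through MAP kinases acting on promoter-bound SRF, ELK and CREB, without new protein synthesis, and the transcripts decay fast. In muscle, FOS and JUN are known from the early activation of satellite cells.

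Promoter sequence of 4 members is shown because induction of these genes is known to run through such elements, and because the set includes Egr2, whose groups of libraries did not overlap below. RefSeq windows on GRCm38.p6 matched 7 of the 10 members, with 11 windows in all; none was used for Fosl1, Egr1 or Egr3. Each run is the 250 bases before an annotated start, 5′ to 3′ on the gene's strand. Capitals mark matches on either strand to the CArG box of SRF, to the CREB core TGACG, to the AP-1 and CREB site TGACNTCA, to the AP-1 site TGANTCA, to the EGR site GCGNGGGCG and to the TATA box as TATAAA. The core TGACG is part of TGACNTCA where N is G. The windows are chr12:85473640-85473889 on the plus strand for Fos, chr4:95052223-95052472 on the minus strand for Jun, chr8:84978749-84978998 on the minus strand for Junb and chr10:67537619-67537868 on the plus strand for Egr2.
Fos: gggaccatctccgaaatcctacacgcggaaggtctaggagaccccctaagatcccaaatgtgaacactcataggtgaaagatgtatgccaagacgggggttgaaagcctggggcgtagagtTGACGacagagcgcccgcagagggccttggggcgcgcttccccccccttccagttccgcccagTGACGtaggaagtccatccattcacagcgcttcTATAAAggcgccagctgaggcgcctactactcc
Jun: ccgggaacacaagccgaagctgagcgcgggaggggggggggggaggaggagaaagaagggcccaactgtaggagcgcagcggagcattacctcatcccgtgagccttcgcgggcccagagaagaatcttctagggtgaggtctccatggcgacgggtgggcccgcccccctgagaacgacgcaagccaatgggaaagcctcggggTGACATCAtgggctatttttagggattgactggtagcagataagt
Junb: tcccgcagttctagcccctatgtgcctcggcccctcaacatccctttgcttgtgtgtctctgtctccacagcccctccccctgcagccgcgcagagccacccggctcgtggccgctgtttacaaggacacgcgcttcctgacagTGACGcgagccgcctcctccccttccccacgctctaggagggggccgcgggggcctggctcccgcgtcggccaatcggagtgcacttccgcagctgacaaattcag
Egr2: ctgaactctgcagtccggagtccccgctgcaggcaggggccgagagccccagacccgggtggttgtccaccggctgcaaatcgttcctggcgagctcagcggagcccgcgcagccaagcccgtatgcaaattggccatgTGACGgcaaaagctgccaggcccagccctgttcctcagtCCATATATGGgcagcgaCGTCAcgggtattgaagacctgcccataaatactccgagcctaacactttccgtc

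The Fos window holds TGACG with its first base at -129 and again at -66, and TATAAA at -33, counted back from the start at -1. The Jun window holds TGACNTCA as TGACATCA at -45, and that of Junb holds TGACG at -106. In the Egr2 window a CArG box, CCATATATGG, begins at -72 and lies between TGACG at -111 and its reverse complement CGTCA at -55. This Egr2 start lies 2394 bases inside the first deposited base of the gene, so that the window lies within the gene. Whether it is exon or intron for longer transcripts of Egr2 was not checked. Over 32851 windows of this length, 1.467% held a CArG box, 17.77% TGACG, 7.488% TGACNTCA, 6.749% TGANTCA, 4.697% GCGNGGGCG and 12.37% TATAAA. Of the 11 windows 2 held none of these motifs, that of Jund, which lies far upstream of the deposited gene, and the first of the Egr2 windows, and they are not printed. A match describes the letters alone, and elements farther upstream lie outside these windows.

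All 10 factors were well covered, from 120 counts for Egr3 in WT replicate 1 to 26953 counts for Egr1 in WT replicate 2. All 10 passed the expression filter that 14679 genes passed. Total counts per library ranged from 16281216 to 17734551. Values are given as CPM, the count over the library total, scaled between libraries with TMM factors. Eif5a, the targeted gene, showed no decrease: it was at 1276 ± 310 CPM in WT and 1294 ± 209 CPM in the libraries labelled eIF5A-KO (SD, n = 3 each), with a log2 fold change of 0.02 (95% CI -0.51 to 0.55) and an adjusted p of 0.993. WT replicate 1 stood apart in its share of mitochondrial transcripts, which was 5.75% of counts against 2.11% to 3.50% in the other 5 libraries. Of the 8 markers listed for each of 5 cell types, none was at 0 in all libraries, and the myogenic markers, Myod1 and Pax7 among them, were accompanied by fibroblast, endothelial, mural and macrophage ones.

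No AP-1 or EGR transcript differed between genotypes after adjustment. All 10 estimates were above 0 in the libraries labelled eIF5A-KO, with a median log2 fold change of 0.32, against -0.01 over all tested genes, of which 48.3% were above 0. They ranged from 0.07 for Egr1 to 0.76 for Egr3. Without WT replicate 1, 6 of the 10 were above 0 and the median was 0.16. By edgeR's quasi-likelihood test, 0 of the 10 had an adjusted p under 0.05, and 0.0204% of all tested genes did. Without adjustment 1 member, Egr2, had a p under 0.05, as did 6.76% of tested genes in either direction and 2.74% in the direction of Egr2. DESeq2 gave 0 by adjusted p and 2 without adjustment, beside 4.07% of all genes in that fit. Limma-voom gave 0 and 1, beside 6.55%. None met the study's own criterion of a fold change over 2 with an unadjusted p under 0.05, which 1.85% of tested genes met. The 3 libraries labelled eIF5A-KO lay apart from the 3 WT libraries in 2 members, Jund and Egr2, and in 12.5% of tested genes. In 3 members, Fosb, Fosl2 and Egr1, all of the eIF5A-KO values fell inside the WT range, as they did in 29.7% of tested genes. In bulk RNA, a change in the number of cells of a type and a change in RNA per cell cannot be told apart.

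**Figure D1:**
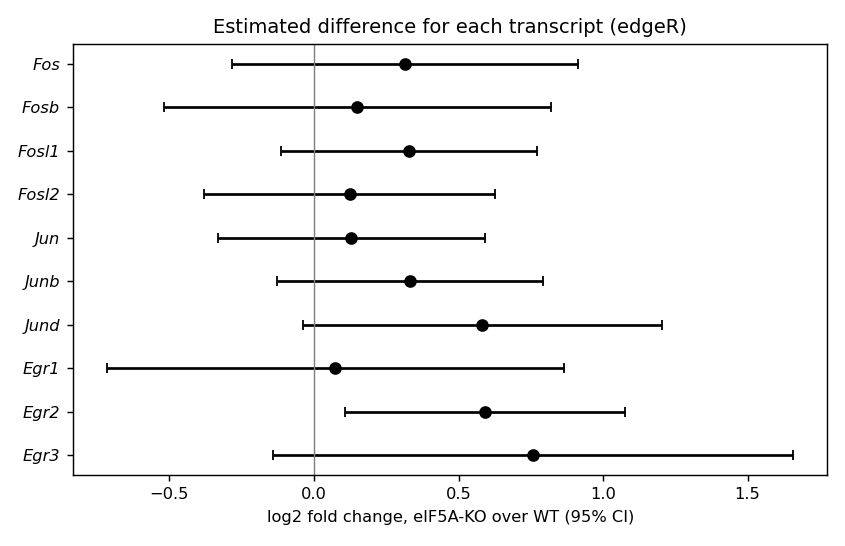
Log2 fold change of each transcript, libraries labelled eIF5A-KO over WT, from edgeR's quasi-likelihood fit; points are estimates and bars are 95% confidence intervals. All 10 points lie above 0, from 0.07 for Egr1 to 0.76 for Egr3, and the interval of Egr2 alone (0.11 to 1.08) does not cross 0; without WT replicate 1, 6 of the 10 stay above 0.

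Levels of different genes can be compared only per length, as FPKM, in which fragments are divided by gene length and library size. Averaged over the 6 libraries, the order was Junb at 273 FPKM, Egr1 at 216, Fos at 157, Jun at 143, Fosl1 at 132, Jund at 59.2, Fosb at 25.05, Fosl2 at 24.99, Egr2 at 18.1 and Egr3 at 4.77. Neighbours in that order overlapped in their ranges over libraries, except the last pair: the lowest Egr2 value was 12.2 FPKM and the highest Egr3 value 8.41 FPKM. Compared within each library, Fosl1 also lay above Jund, and Jund above Fosb, in all 6 libraries. Junb was the most abundant factor by its mean, although in WT replicate 2 Egr1 stood higher, at 315 FPKM against 258 FPKM.

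Among the FOS proteins, which cannot pair with one another and need a JUN partner to bind DNA, the transcripts of Fos and Fosl1 made up most of the family. Fos (ENSMUSG00000021250, chromosome 12, plus strand, 85473890 to 85477273) encodes the founding partner of JUN. Fos stood at 239, 465 and 291 CPM in WT replicates 1, 2 and 3 and at 473, 329 and 436 CPM in the libraries labelled eIF5A-KO. The 2 groups overlapped, since WT replicate 2 lay close to the highest eIF5A-KO value. Means were 331 ± 118 CPM in WT and 412 ± 74.7 CPM in eIF5A-KO (SD, n = 3 each), and the log2 fold change was 0.31 (SE 0.27, 95% CI -0.28 to 0.91, edgeR adjusted p = 0.911). Fosb (ENSMUSG00000003545, chromosome 7, minus strand, 19302696 to 19310051) encodes a close relative of FOS that is also made as a shorter spliced form. Fosb was at 105, 225 and 119 CPM in WT and at 200, 129 and 169 CPM in eIF5A-KO. It followed the order of Fos over all 6 libraries except that WT replicate 2 was the highest, and its log2 fold change was 0.15 (95% CI -0.52 to 0.82, adjusted p = 0.967).

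Fosl1 (ENSMUSG00000024912, chromosome 19, plus strand, 5447703 to 5455945) encodes FRA1, a FOS relative without the activation domain of FOS. It was at 155, 205 and 245 CPM in WT and at 267, 243 and 250 CPM in the libraries labelled eIF5A-KO. The eIF5A-KO values lay within a narrow band, of which the lowest was just under the highest WT value, so that the groups overlapped by 1 library on each side. Means were 202 ± 44.7 and 253 ± 12.7 CPM (SD, n = 3 each), with a log2 fold change of 0.33 (SE 0.20, 95% CI -0.12 to 0.77, adjusted p = 0.850). Fosl2 (ENSMUSG00000029135, chromosome 5, plus strand, 32135801 to 32157842) encodes FRA2, also without that domain. It was at 179, 315 and 207 CPM in WT and at 256, 243 and 265 CPM in eIF5A-KO, all inside the WT range. The log2 fold change of Fosl2 was 0.12 (95% CI -0.38 to 0.63, adjusted p = 0.966).

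The summed level of the FOS family was 224, 382 and 305 FPKM in WT replicates 1, 2 and 3 and 412, 326 and 385 FPKM in the libraries labelled eIF5A-KO. Means were 304 ± 79.0 and 374 ± 44.2 FPKM (SD, n = 3 each), and the groups overlapped. The shares of the family overlapped between the genotypes: Fos gave 45.3% ± 5.50 of the sum in WT and 46.3% ± 3.16 in eIF5A-KO, and Fosl1 39.2% ± 7.78 and 39.6% ± 3.23. Fosb gave 7.63% and 7.002% on average, and Fosl2 7.82% and 7.03%.

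JUN proteins pair with FOS proteins and with each other, and JUNB and JUND are weaker activators than JUN at many sites. Jun (ENSMUSG00000052684, chromosome 4, minus strand, 95049034 to 95052222) is a gene of 1 exon. Its values were 346, 511 and 462 CPM in WT and 503, 409 and 530 CPM in the libraries labelled eIF5A-KO. The groups overlapped broadly, and the log2 fold change was 0.13 (SE 0.21, 95% CI -0.33 to 0.59, adjusted p = 0.957). Junb (ENSMUSG00000052837, chromosome 8, minus strand, 84974484 to 84978718) was at 554, 600 and 532 CPM in WT and at 874, 689 and 560 CPM in eIF5A-KO. The WT values of Junb lay close together, whereas those of eIF5A-KO were spread, with replicate 1 high and replicate 3 inside the WT range. Means were 562 ± 35.1 and 708 ± 158 CPM (SD, n = 3 each), with a log2 fold change of 0.33 (SE 0.21, 95% CI -0.13 to 0.79, adjusted p = 0.862).

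Jund (ENSMUSG00000071076), the member of the family that is usually expressed without induction, is a gene of 1 exon (chromosome 8, plus strand, 70698949 to 70700616). It was at 52.7, 91.0 and 95.7 CPM in WT and at 161, 99.2 and 98.7 CPM in the libraries labelled eIF5A-KO. The groups did not overlap, but eIF5A-KO replicates 2 and 3 lay just above WT replicates 2 and 3, and the distance between the means came mainly from WT replicate 1 and eIF5A-KO replicate 1. Means were 79.8 ± 23.6 and 119 ± 35.6 CPM (SD, n = 3 each), and the log2 fold change was 0.58 (SE 0.28, 95% CI -0.04 to 1.20). Its p was 0.0633 before and 0.791 after adjustment in edgeR. In the exact two-sided permutation test on FPKM Jund had p = 0.1, the smallest that 3 against 3 libraries can give. The JUN family summed to 375, 471 and 430 FPKM in WT and to 628, 485 and 467 FPKM in eIF5A-KO, with means of 425 ± 48.2 and 526 ± 88.4 FPKM. Junb gave 57.1% ± 5.32 of that sum in WT and 57.8% ± 5.13 in eIF5A-KO, Jun 31.9% ± 2.93 and 28.9% ± 5.74, and Jund 11% ± 2.50 and 13.3% ± 1.62 (SD, n = 3 each).

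Strand matters for 4 of these genes. The library kit does not mark strand, and the strand setting of the counting was not given in the sources used here, so that reads of a gene and of an antisense partner that shares its exons cannot be told apart. Exons of Fosl1 overlap those of Ccdc85b, Junb those of Prdx2, Jun those of Junos and Jund those of Gm11175. Prdx2 had 3151 to 4947 counts and a log2 fold change of 0.04, Ccdc85b 1284 to 1953 counts and 0.36, and Junos 37 to 57 counts and -0.16, and none of them had an adjusted p under 0.05. Gm11175 had 0 counts in each library. The deposited length of Fosl1, 1707 bases, is shorter than its annotated exons at 2033 bases, and how this bears on its counts and FPKM was not tested. Beyond those antisense partners, no other annotated gene matched a member's transcripts over 200 bases or more at 90% identity or more.

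**Figure D2:**
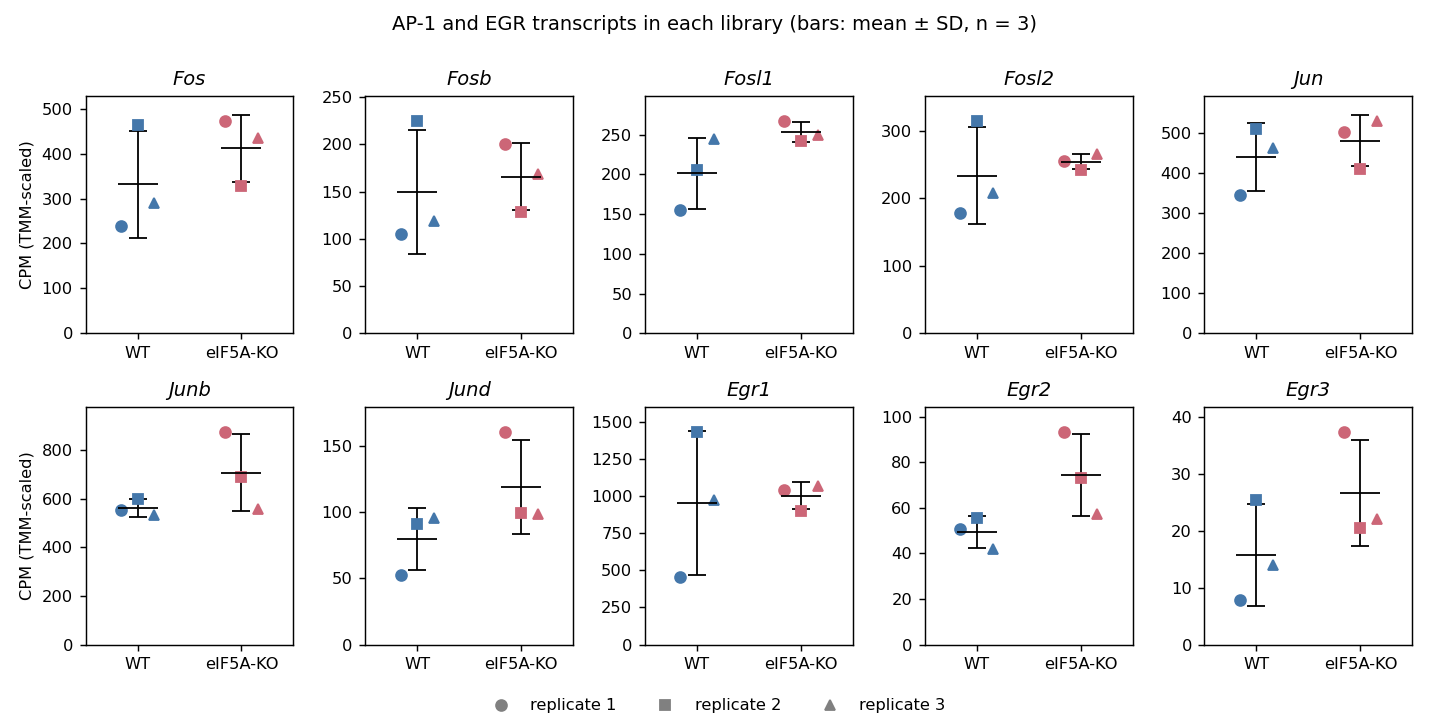
TMM-scaled CPM of each transcript in each library, with WT in blue and libraries labelled eIF5A-KO in red. Symbols mark replicates 1 to 3, for which no pairing across genotypes is described, and bars the mean ± SD of 3 libraries. Each axis starts at 0. In 8 of the 10 panels the lowest point is WT replicate 1, and Jund and Egr2 are the panels in which the groups do not overlap.

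The EGR family held the most variable transcripts of the set, Egr1 and Egr3, and the one with the lowest p, Egr2. EGR1 is a broad early responder to serum and growth factors, EGR2 and EGR3 are restricted relatives, and EGR3 is needed for muscle spindles to form. Egr1 (ENSMUSG00000038418, chromosome 18, plus strand, 34859823 to 34864984) was at 454, 1429 and 976 CPM in WT and at 1043, 899 and 1068 CPM in the libraries labelled eIF5A-KO. WT replicates 1 and 2 held the lowest and the highest value of Egr1, and all of the eIF5A-KO values lay between them. The highest WT value was 3.15 times the lowest, and in eIF5A-KO the ratio was 1.19. Means were 953 ± 488 and 1003 ± 91.3 CPM (SD, n = 3 each), with a log2 fold change of 0.07 (SE 0.35, 95% CI -0.72 to 0.86, adjusted p = 0.986).

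Egr2 (ENSMUSG00000037868, chromosome 10, plus strand, 67535475 to 67542188) is known from Schwann cells and hindbrain segmentation. It was at 50.8, 55.6 and 41.9 CPM in WT and at 93.2, 73.2 and 57.2 CPM in the libraries labelled eIF5A-KO. The groups did not overlap, although eIF5A-KO replicate 3 was only slightly above WT replicate 2. Means were 49.4 ± 6.92 and 74.5 ± 18.0 CPM (SD, n = 3 each), a fitted difference of 1.51-fold (95% CI 1.08 to 2.11) or 0.59 on the log2 scale (SE 0.22). The p of Egr2 was 0.0219 before adjustment and 0.609 after it, and the exact two-sided permutation test on FPKM gave p = 0.1, again its lower limit. Without WT replicate 3 or without eIF5A-KO replicate 1, the unadjusted p of Egr2 was over 0.05, with log2 fold changes of 0.49 and 0.41.

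Egr3 (ENSMUSG00000033730, chromosome 14, plus strand, 70077203 to 70082614) was the least abundant, at 7.76, 25.5 and 13.9 CPM in WT and 37.4, 20.5 and 22.1 CPM in the libraries labelled eIF5A-KO. It had the highest estimate of the 10, and yet the groups overlapped, since WT replicate 2 exceeded eIF5A-KO replicates 2 and 3. Means were 15.7 ± 9.01 and 26.7 ± 9.30 CPM (SD, n = 3 each), and the log2 fold change was 0.76 (SE 0.40, 95% CI -0.14 to 1.66), with an edgeR p of 0.0898 before and 0.811 after adjustment. Without WT replicate 2 the estimate was 1.30, and without WT replicate 1 it was 0.44. The EGR family summed to 116, 337 and 231 FPKM in WT and to 266, 225 and 259 FPKM in eIF5A-KO, nearly all of it Egr1, at 90.9% ± 4.38 and 88.9% ± 2.51 (SD, n = 3 each). As a description without a test, the part of the sum that Egr3 gave was 1.49%, 1.70% and 1.36% in WT and 3.16%, 2.06% and 1.93% in eIF5A-KO, with no overlap, whereas that of Egr2 overlapped.

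**Figure D3:**
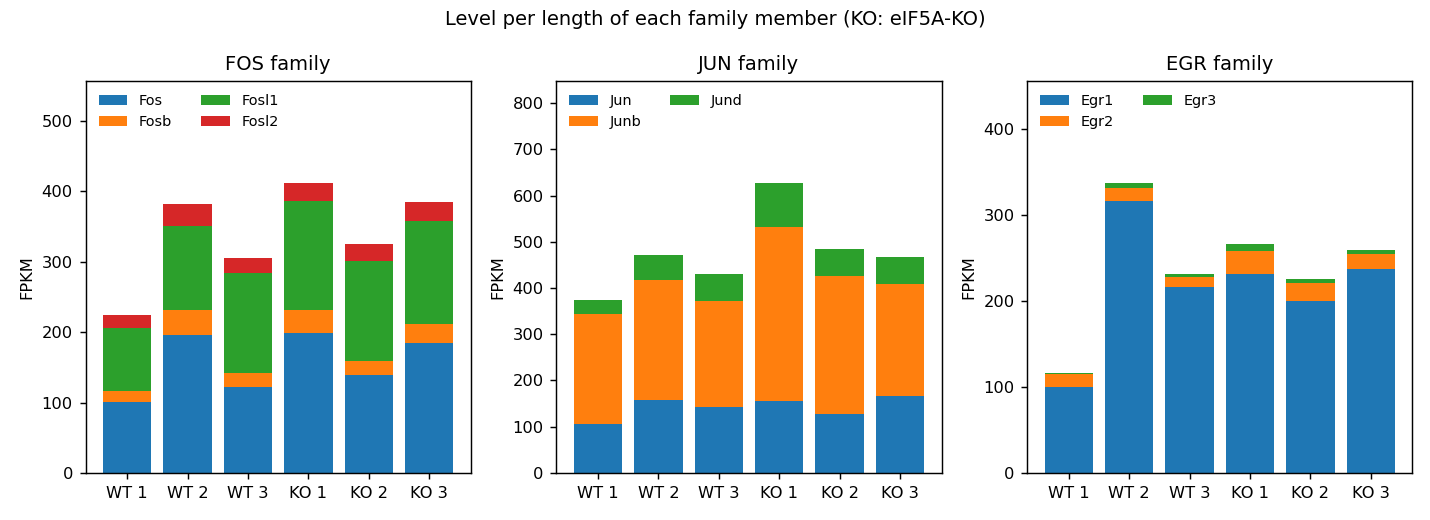
Level per length (FPKM) of the members of each family in each library, stacked, with the height of a bar as the family's sum. Egr1 fills most of the EGR bars and Junb most of the JUN bars, and WT replicate 1 has the lowest sum in all 3 families (224, 375 and 116 FPKM).

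Much of the spread of the 10 transcripts lay between libraries of the same genotype. Their within-genotype SD on the log2 scale ran from 0.24 for Fosl1 and Junb to 0.60 for Egr1 and 0.69 for Egr3, with a median of 0.35 against 0.29 for all tested genes. The SD was larger in WT than in eIF5A-KO for 8 of the 10, the exceptions being Junb and Egr2, and for 64.5% of tested genes. WT replicate 1 held the lowest value of 8 members, all but Junb and Egr2, whereas it held the lowest value of 27.9% and the highest of 27.4% of tested genes. At the other end, eIF5A-KO replicate 1 held the highest value of 6 members (Fos, Fosl1, Junb, Jund, Egr2 and Egr3), WT replicate 2 that of 3 (Fosb, Fosl2 and Egr1) and eIF5A-KO replicate 3 that of Jun. Together the 10 genes took 0.199%, 0.417% and 0.310% of counts in WT replicates 1, 2 and 3 and 0.379%, 0.302% and 0.357% in the libraries labelled eIF5A-KO. The WT range of these sums thus contained all of the eIF5A-KO values.

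Leaving out single libraries moved the estimates of several members. The 4 that fell below 0 without WT replicate 1 were these: Fosb was at -0.04, Fosl2 at -0.03, Jun at -0.01 and Egr1 at -0.25. Without WT replicate 2 the median was 0.53, and 5 members had an unadjusted p under 0.05, among 8.82% of the genes then tested: Fos at 0.64, Fosb at 0.57, Jund at 0.69, Egr2 at 0.69 and Egr3 at 1.30. In that fit Egr3 also met the fold criterion of the study. Without eIF5A-KO replicate 1 the median was 0.19 and no member had an unadjusted p under 0.05. In none of the 17 alternatives tried did a member have an adjusted p under 0.05.

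**Figure D4:**
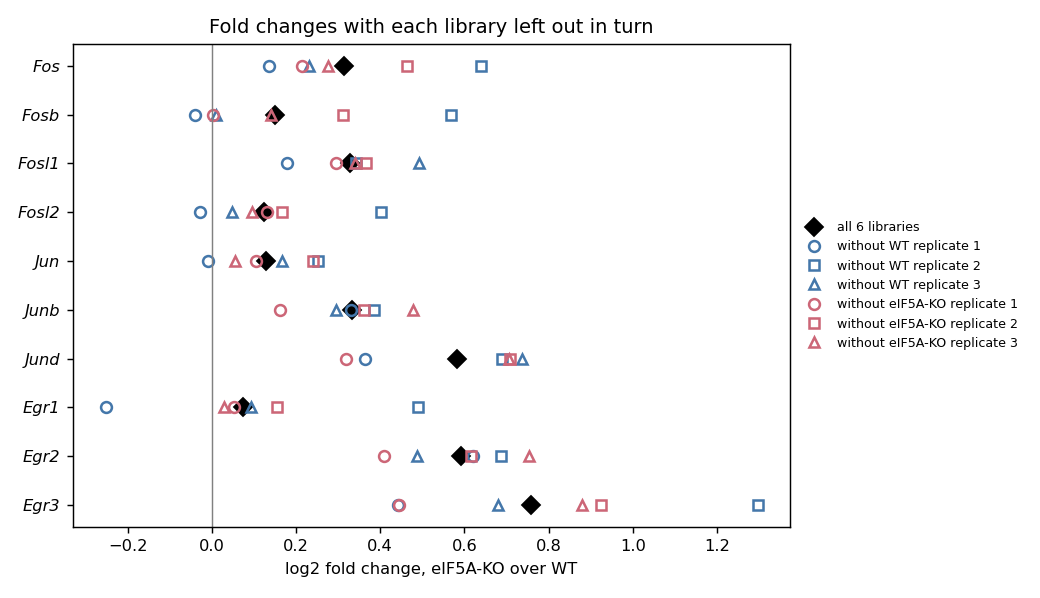
Log2 fold change of each transcript, libraries labelled eIF5A-KO over WT, with all 6 libraries (black) and with each library left out in turn (blue for a WT library, red for an eIF5A-KO library). Without WT replicate 1, 4 of the 10 estimates fall below 0, with Egr1 the lowest at -0.25, and without WT replicate 2 Egr3 reaches 1.30.

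Markers of other cell types were read in the same libraries. WT replicate 1, the lowest library for 8 factors, was also the lowest for 7 of 8 endothelial and 6 of 8 mural markers, and for 3 of 8 myogenic, 3 of 8 fibroblast and 3 of 8 macrophage markers. The summed level of the 8 endothelial markers (Pecam1, Cdh5 and Kdr among them) was 1199 to 2589 CPM in WT and 2107 to 3230 CPM in the libraries labelled eIF5A-KO, with all 8 estimates above 0, a median log2 fold change of 0.36 and 0 called after adjustment. The 8 mural markers summed to 371 to 629 CPM in WT and 723 to 785 CPM in eIF5A-KO, without overlap, with all 8 estimates above 0, a median of 0.52 and 1 called after adjustment, the smooth muscle myosin heavy chain Myh11 (adjusted p = 0.0486), which 6 of the 17 alternatives called as well. The mural median was 0.99 without WT replicate 2, and 0.40 with 7 of 8 estimates above 0 without WT replicate 1. The 8 myogenic markers summed to 655 to 1633 CPM in WT and 667 to 1169 CPM in eIF5A-KO, with 7 of 8 estimates below 0 and a median of -0.45. Without WT replicate 2, however, 5 of the 8 myogenic estimates were above 0 and the median was 0.08. Pax7 among them was at -1.50 (edgeR adjusted p = 0.484), and it was called without a filter and without WT replicate 1. Fibroblast markers summed to 2969 to 3617 CPM and 2910 to 3717 CPM with a median of -0.12, which was 0.23 without WT replicate 1 and 0.05 without WT replicate 2. Macrophage markers summed to 54.3 to 125 CPM and 53.9 to 157 CPM with a median of 0.33, which was -0.07 without eIF5A-KO replicate 1 and 0.85 without WT replicate 2. The endothelial median was 0.11 without WT replicate 1 and 0.60 without WT replicate 2. The part of the cell mixture in the levels of the AP-1 and EGR transcripts was not tested.

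The other immediate-early genes also had estimates mostly above 0, likewise without a call after adjustment in the filtered edgeR fit to all libraries. Of 48 listed genes 47 were tested, and 45 of them had an estimate above 0, with a median log2 fold change of 0.28; the exceptions were Klf6 and Errfi1, and 0 had an adjusted p under 0.05 in edgeR. An unadjusted p under 0.05 was found for 10 of them, each higher in eIF5A-KO, where 2.74% of all tested genes were higher with such a p, and 13 did not overlap between the groups, as 12.5% of tested genes did not. The 10 became 4 without eIF5A-KO replicate 1, where 3.88% of all genes had such a p, and 6 without WT replicate 3, where 5.28% did. The count was 12 without WT replicate 1, beside 10.2% of all genes, and 11 without WT replicate 2, beside 8.82%. Without a filter it was 13, beside 6.32%. WT replicate 1 held the lowest value of 29 of the 47, and eIF5A-KO replicate 1 the highest of 32. DESeq2 called 1 of them after adjustment, Nr4a3 (adjusted p = 0.0185), and limma-voom 0. Without WT replicate 1, and also without eIF5A-KO replicate 1, 37 estimates were above 0.

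Nr4a3, an orphan nuclear receptor, had the largest estimate on that list. It was at 2.46, 4.67 and 3.78 CPM in WT and at 11.01, 7.82 and 8.11 CPM in the libraries labelled eIF5A-KO, without overlap, with a log2 fold change of 1.30 (SE 0.30, 95% CI 0.63 to 1.96, adjusted p = 0.362). Errfi1, a feedback inhibitor of the EGF receptor, had the lowest, at -0.10 (adjusted p = 0.966). Named after their values were seen, the other 9 with an unadjusted p under 0.05 were the cytokine Lif at 0.93, the nuclear receptors Nr4a1 at 0.83 and Nr4a2 at 0.52, the synaptic gene Arc at 0.76, the bZIP factors Cebpb at 0.64 and Atf3 at 0.57, the matricellular gene Ctgf at 0.62, the mRNA decay factor Zfp36 at 0.61 and the kinase Plk3 at 0.54. Lif was at 57.3, 55.7 and 35.2 CPM in WT and at 117, 81.0 and 85.0 CPM in eIF5A-KO, with an adjusted p of 0.398. Nr4a1 was at 113, 144 and 92.4 CPM and at 275, 170 and 175 CPM, with an adjusted p of 0.488. In both genes each eIF5A-KO library lay above each WT library.

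Among the genes that make partners for AP-1, 23 of 26 were tested, with 14 estimates above and 9 below 0 and a median log2 fold change of 0.05. Without WT replicate 2 the median was 0.14, with 19 of 23 above 0. Unadjusted p-values in edgeR were under 0.05 for 2 of the 23, Atf3 and Cebpb, which are also on the immediate-early list, beside 6.76% of all tested genes. Creb1, the CREB factor that binds TGACG, had the lowest estimate among those with a mean of at least 5 CPM, at -0.33. Creb1 was at 54.0 ± 1.59 CPM in WT and 42.8 ± 6.57 CPM in the libraries labelled eIF5A-KO (SD, n = 3 each), without overlap, and its adjusted p was 0.809.

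The regulators upstream, from RAF and MAP kinases to SRF, its partners and the NAB corepressors of EGR proteins, numbered 38, all tested, with 25 estimates above and 13 below 0 and a median of 0.09. None of them had an unadjusted p under 0.05 in edgeR with all libraries. Up to 4 did with a library left out (without eIF5A-KO replicate 3, where 7.12% of all genes had such a p). The median ran from 0.05 to 0.14 over the alternatives. Map2k2, which activates ERK, was the highest at 0.36 (adjusted p = 0.815), and Mapk8, a JUN N-terminal kinase, the lowest at -0.39 (adjusted p = 0.791). Of 21 feedback genes of MAP kinase signalling 15 estimates were above and 6 below 0, with a median of 0.06, which was -0.03 without WT replicate 1 and 0.20 without WT replicate 2. Dusp5, a phosphatase of nuclear ERK, was at 125 ± 22.5 CPM in WT and 184 ± 42.0 CPM in eIF5A-KO (SD, n = 3 each), without overlap. Its log2 fold change was 0.56 (edgeR adjusted p = 0.644). Etv5, a target of ERK signalling, was at -0.54 (adjusted p = 0.785).

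On none of the lists of partners, upstream regulators, feedback genes, targets and heat-shock genes was a gene called after adjustment, by edgeR or in the 17 alternatives. Of 36 genes listed as targets of AP-1 or EGR factors, 34 were tested and 26 estimates were above 0, with a median of 0.27. In edgeR 3 of the targets had an unadjusted p under 0.05: Tgfb1 at 0.62, Thbs1 at 0.56 and Ngfr at 0.42. All 3 were higher in eIF5A-KO, as were 2.74% of all tested genes with such a p. The count was 0 without eIF5A-KO replicate 1 and 13 without WT replicate 1, a fit in which 10.2% of genes had such a p. The secreted phosphoprotein gene Spp1 had the highest estimate among targets with a mean of at least 5 CPM, at 0.65 (adjusted p = 0.847), and Ccnd1, which encodes cyclin D1, was at -0.39 (adjusted p = 0.808). Heat-shock genes, listed as transcripts of another rapid response, had 11 of 19 estimates above 0 and a median of 0.03, but 18 of 19 above 0 and a median of 0.19 without WT replicate 1. The median of the 10 factors in that fit was 0.16. With all libraries 3 of the 19 heat-shock genes had an unadjusted p under 0.05 in edgeR. All 3 were higher in eIF5A-KO, beside the 2.74% of all tested genes, and the count ran from 0 to 3 over the alternatives. Bag3, a cochaperone, was at 117 ± 33.0 CPM in WT and 166 ± 11.2 CPM in eIF5A-KO (SD, n = 3 each), without overlap (0.51, adjusted p = 0.733), and the chaperonin Hspe1 was at -0.32 (adjusted p = 0.913).

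**Figure D5:**
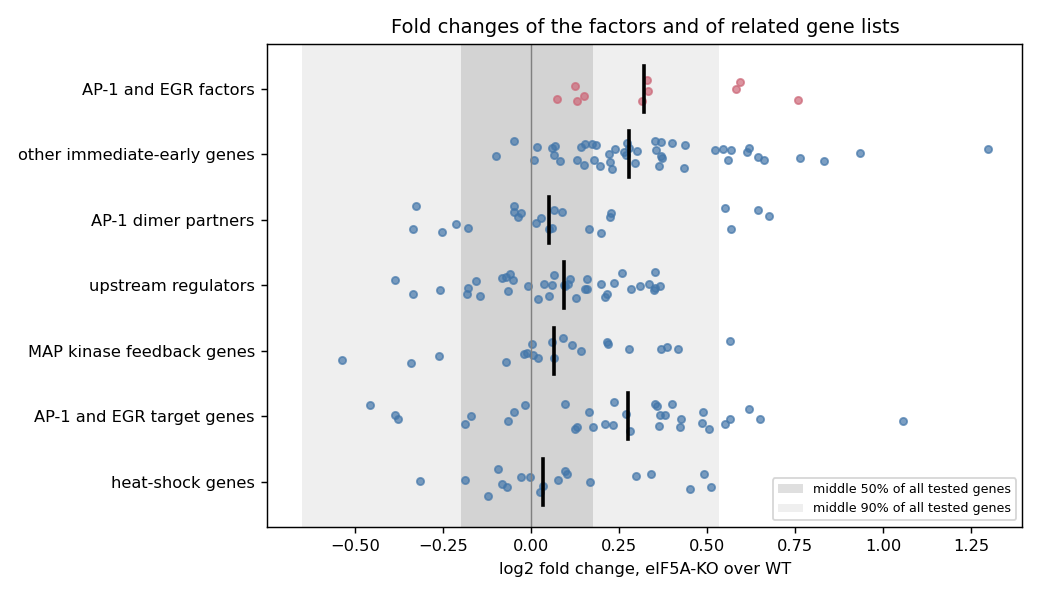
Log2 fold change, libraries labelled eIF5A-KO over WT, of the 10 factors (red) and of each tested gene on 6 related lists (blue), with black bars for medians and grey bands for the middle 50% and 90% of all tested genes. The medians are 0.32 for the factors, 0.28 for the other immediate-early genes and 0.27 for the targets, and between 0.03 and 0.09 for the other 4 lists; the bands show the spread of single genes and are no measure of the spread of a median.

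Over the 6 libraries, the transcripts closest in pattern to Fos were Cdk18, a cyclin-dependent kinase, Gpr137b, a lysosomal membrane protein, and Mgll, monoacylglycerol lipase. Likeness was the root-mean-square difference of log2 CPM after each gene was centred on its own mean, over 11037 genes with a mean of at least 5 CPM. It was 0.07 for Cdk18, 0.08 for Gpr137b and 0.09 for Mgll, against a median of 0.43 over the genes compared. Fosb was the nearest member to Fos at 0.11 and ranked as number 9. For Fosl1 the nearest were Rab11b, a recycling endosome GTPase, at 0.04, Tnfrsf23, a decoy TRAIL receptor, at 0.05 and Sf3b4, a splicing factor, at 0.06, against a median of 0.35. The nearest member to Fosl1 was Jun at 0.18, which ranked as number 755.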

How the data were processed

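Bulk RNA-seq was available for 3 WT libraries and 3 labelled eIF5A-KO, from primary myoblasts at day 2. Per the methods, the authors took total RNA with TRIzol, made libraries with an NEBNext Ultra kit, mapped reads to mm10 with HISAT at default settings and deposited raw counts per gene. The authors also deposited FPKM, which was used for levels between genes. The annotation release and the counting settings are not given in the sources used here. No column of per-sample values was left unused.

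Counts were tested with edgeR 4.0.16 in R 4.3.3 (filterByExpr, TMM, quasi-likelihood, two-sided), with Benjamini-Hochberg adjustment over all 14679 tested genes and a threshold of 0.05. The common biological coefficient of variation was 0.239. CPM use TMM factors. FPKM values were compared with exact two-sided permutation tests. Alternatives were other scalings and filters, DESeq2 1.42.0, limma 3.58.1 on voom weights, log2(FPKM + 1) or log2(FPKM + 0.1), a replicate block and leaving out each library. Copies were sought with blastn 2.17.0, and promoter windows are those of RefSeq. Libraries of a genotype differed by more than counting noise.

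The members, the lists and the tests were chosen with earlier results of these data known. Named were all 10 members, the highest and the lowest estimate of each list (markers apart) at a mean of at least 5 CPM, the 3 genes most like Fos and Fosl1, and Eif5a. Of these, 1 is not reported here. Genes named outside this rule serve as examples of a list. Reads carry no molecular identifiers.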

Additional observations from a re-analysis of the deposited data

How the results depend on the processing

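The count of members with an adjusted p under 0.05 was 0 in all 17 alternatives, and the smallest adjusted p of a member was 0.0846 (Egr3, no filter). The count with an unadjusted p under 0.05 was 1 with all libraries, 3 without a filter (Jund, Egr2 and Egr3, with 6.32% of all genes in that fit), 2 with DESeq2 (4.07%), 2 with the replicate block (Egr2 and Egr3, 5.96%) and from 0 to 5 with single libraries left out; the count by the fold criterion went from 0 to 1 there. The study describes no pairing of the libraries, and whether same-numbered libraries share a litter or a batch cannot be settled from these values. Deviations of same-numbered libraries correlated at 0.08, -0.16 and 0.11. The replicate block called 24 genes after adjustment against 3 without it, none of them a member. Over the libraries left out, the log2 fold change ranged from -0.040 to 0.57 for Fosb, from -0.027 to 0.40 for Fosl2, from -0.0093 to 0.25 for Jun and from -0.25 to 0.49 for Egr1, with each lowest value without WT replicate 1; the cause was not tested. The other 6 members kept their direction, with lowest values of 0.14 for Fos, 0.18 for Fosl1 and 0.44 for Egr3 without WT replicate 1, and of 0.16 for Junb, 0.32 for Jund and 0.41 for Egr2 without eIF5A-KO replicate 1. All 10 kept their direction under the 11 alternatives with all libraries. Over all genes, 249 were called after adjustment without a filter, 84 by DESeq2 and 56 without WT replicate 1. The median estimate of the other immediate-early genes ranged from 0.21 to 0.39 over the alternatives and 0 to 3 of them were called after adjustment (Nr4a1, Nr4a3 and Lif without a filter); that of the targets ranged from 0.22 to 0.39.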
